A study of Mus musculus with 32 samples.

Results

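The replication-dependent histone genes were examined in MIN6 cells, a mouse insulinoma line that keeps glucose-stimulated insulin secretion and divides in culture. They were taken as all genes whose older mouse symbol begins with Hist1h, Hist2h, Hist3h or Hist4h, and 67 of the 21945 genes of the RNA table met this rule, all of them present in the RPF table too. By class there were 6 genes of the linker histone H1, 18 of H2A, 18 of H2B, 12 of H3 and 13 of H4. On GRCm38.p6 (RefSeq), 53 lay on chromosome 13 between 21715711 and 23934913, 10 on chromosome 3 between 96219885 and 96270192, 2 on chromosome 11 and 1 on chromosome 6, and 1 could not be placed by symbol. Low-passage wild-type MIN6 cells, grown routinely in 25 mM glucose, were held for 24 hours in 5.5 mM (low) or 25 mM (high) glucose and briefly given cycloheximide, which stalls ribosomes, in both groups. There were 8 cultures per glucose concentration, replicates 1 to 4 in a first library batch and 5 to 8 in a second. Each culture gave a library of ribosome-protected footprints (RPFs), the mRNA stretches covered by ribosomes, and a library of poly(A)-selected RNA, 32 libraries in all. The labels call the replicates biological but do not say whether they were grown on separate days, so p-values measure the spread between these cultures of 1 cell line.

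Histones package DNA. H2A pairs with H2B and H3 with H4 to form the core of the nucleosome, and H1 binds where DNA enters and leaves it. The replication-dependent genes are clustered, lack introns and are expressed mainly in S phase, when new DNA must be packaged. Their mRNAs end in a conserved stem-loop bound by the protein SLBP in place of a poly(A) tail, and they are degraded when DNA synthesis stops. Several of the genes can also give polyadenylated transcripts, which have been seen in differentiated and non-dividing cells. For this reason RPFs and poly(A)-selected RNA do not sample the same pool of transcripts of these genes, and how much of each mRNA the selection kept was not measured.

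Promoters of these genes carry short elements that differ between classes, and 61 of the 67 members had a RefSeq promoter window (250 bases before to 50 after the annotated start). 4 motifs were searched on both strands, none contained in another. The octamer ATTTGCAT, which POU-domain factors such as Oct-1 bind in H2B promoters, was in 7 of 16 H2B and 7 of 17 H2A windows and in none of the 6 H1, 10 H3 and 12 H4 windows, against 1.74% of all 32851 windows. Windows of H2A and H2B genes that stand head to head overlap, so 1 site can be counted for both genes. Both windows had the octamer in the pairs Hist1h2aa and Hist1h2ba, Hist1h2ae and Hist1h2bg, and Hist1h2ah and Hist1h2bk. The H1 box AAACACA was in 5 of 6 H1 windows, 2 of 17 H2A and 2 of 16 H2B windows and none of the H3 and H4 windows (7.18% of all windows). CCAAT was in every H1, H2A, H2B and H3 window and in 3 of 12 H4 windows (37.4% of all windows), and TATAAA in 35 of 61 (13.6%). The octamer was also in windows of genes whose RPFs were not called, Hist1h2ac, Hist1h2ae, Hist3h2a, Hist1h2bg and Hist1h2bk among them. The octamers of 4 H2A and H2B genes whose RPFs were higher at 25 mM are shown with their surroundings, 5′ to 3′ on the strand of the gene, with the octamer in capitals. They lay 48, 90, 25 and 200 bases before the start, in the order shown, and a link to the RPF change was not tested.
Hist2h2bb, chr3:96269641-96269670, plus strand: tgtgaaacctcATTTGCATacaagctctat
Hist1h2bb, chr13:23746633-23746662, plus strand: ttgagtctcttATTTGCATaaagcctttga
Hist1h2bm, chr13:21722008-21722037, plus strand: ctctcgtctctATTTGCATaacagcgtgta
Hist2h2ac, chr3:96221062-96221091, minus strand, octamer reversed: atgaacgccttATGCAAATtaggtctcaaa
The H1 boxes of the 4 linker histone genes that were tested in RPFs and not called higher are shown with the box in capitals.
Hist1h1b, chr13:21780724-21780753, minus strand: tggggactaacAAACACAatttgggattgt
Hist1h1e, chr13:23622655-23622684, minus strand: tgaggtgtaacAAACACAactccgcatctg
Hist1h1d, chr13:23554899-23554928, plus strand: tgaggggcaacAAACACAgccacaaggcaa
Hist1h1c, chr13:23738684-23738713, plus strand: tgaagtgtaacAAACACAagttgggcgcag
These H1 boxes lay 112 to 122 bases before the start, and in all 4 windows the box was preceded by the same 3 letters. Hist1h1a, the H1 gene whose RPFs were called higher, had no such box in its window, and Hist1h1t, not tested in RPFs, had it. With 1 called gene, a link between the box and the RPF change was not tested.

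RPF libraries held 392529 to 7012999 counts at 5.5 mM and 363569 to 3283379 at 25 mM, RNA libraries 3014785 to 17542565 and 16423766 to 33623502. 5 RNA libraries at 5.5 mM (replicates 2, 4, 6, 7 and 8) stood apart, with 3014785 to 6907849 counts and 0.159% to 1.09% of them from the insulin genes Ins1 and Ins2, against 4.40% to 8.08% in the remaining 3 of this group and 3.98% to 6.51% at 25 mM. The RPF library labelled 25 mM replicate 8 had the lowest summed histone RPFs at 25 mM, 4912 CPM against 6212 or more in the other 7. Results that rest on these libraries are given with and without them. This RPF library was set apart by its histone RPFs, the values under test, so more calls without it are not independent support. Of the 8 β cell markers, all passed the filter in both layers. Among markers of other pancreatic cells, Prss1, Amy2a5, Cpa1, Cela1 and Hhex, which mark exocrine and delta cells, had at most 0.741 CPM in any RNA library and did not pass the filter. Irx2 and Sst were low, with at most 4.71 and 3.42 CPM of RNA, while glucagon (Gcg) was present and rose at 25 mM in RPFs (1.23, SE 0.17, adjusted p = 1.4e-05 with edgeR) and RNA (2.42, SE 0.48, adjusted p = 5.2e-04 with edgeR). The part of these markers in the histone values was not tested.

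Counts on the histone genes were many in RPFs and few in RNA. The 67 genes held 182942 RPF counts, 0.437% to 0.716% of a library at 5.5 mM (median 0.507%) and 0.476% to 0.852% at 25 mM (median 0.630%). In RNA they held 73491 counts, 0.0113% to 0.0351% of a library at 5.5 mM and 0.0224% to 0.0308% at 25 mM. The filter on low counts kept 46 of the 67 genes in RPFs (5 H1, 10 H2A, 10 H2B, 10 H3 and 11 H4) and 29 in RNA (5, 3, 7, 5 and 9). 25 passed both, 21 RPFs only, 4 RNA only and 17 neither, and 13 genes had fewer than 10 RPF counts over all 16 libraries. The latter included Hist1h1t, Hist1h2ba and Hist1h2aa, whose products are known from the testis, with 2, 1 and 9 RPF counts. Also among the 13 were Hist2h2aa1, Hist2h2aa2, Hist2h3c1 and Hist2h3c2, with 1, 1, 0 and 6 RPF counts. Many of the 67 genes share long stretches of sequence, above all those of H4. The sources used here do not say how reads that match several genes were counted, so the split of counts between near-identical copies is uncertain. Levels are given in CPM, the counts of a gene relative to the TMM-scaled size of its library, changes as log2 fold changes (positive where 25 mM is higher) with a standard error (SE), and p-values come from the quasi-likelihood test of edgeR in a model that holds batch, adjusted over all genes tested. Fold changes are log2 values throughout. Beside the genes picked by a rule on RPF level and p, others were named after their values were seen, among them Hist1h2bh, Hist1h2bn, Hist2h2ab, Hist3h2ba, Hist1h2bc, Hist2h2be, Hist1h4i, Hist1h4b, Hist4h4, Hist2h3c1 and Hist2h3c2.

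RPFs of 19 of the 46 genes tested were higher at 25 mM (adjusted p under 0.1) and of 0 lower, where 15.5% of all 8709 genes tested were called higher and 15.4% lower. By class these were 1 of 5 for H1, 3 of 10 for H2A, 6 of 10 for H2B, 7 of 10 for H3 and 2 of 11 for H4, so that the shares of H1 (20.0%) and H4 (18.2%) were near that of all genes. The median log2 fold change of the 46 was 0.40, with -0.01 over all genes tested, and 43 of the 46 values were above 0. None of the 46 was lower at an unadjusted p under 0.05 in edgeR either. DESeq2's Wald test called 20 higher and 0 lower, and the share of all genes with that test is not given here. Without the RPF library labelled 25 mM replicate 8, 26 of 46 were higher, all 19 among them (17.6% of all genes higher and 17.0% lower). That library was picked out by its low summed histone RPFs, so a rise in calls without it is built into the choice. The first batch alone gave 16 of 52 higher (11.1% of all genes) and the second, with fewer counts per library, 3 of 34 (2.92% of all genes), where 27 of 34 values were above 0. Leaving out replicate 4 at both concentrations left 12 of 41 higher, a setting for which the share of all genes is not given here. Leaving out the 5 cultures whose RNA library was shallow left 9 of 49 (6.27% of all genes), where 3 of the 5 H1 values were below 0.

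**Figure D1:**
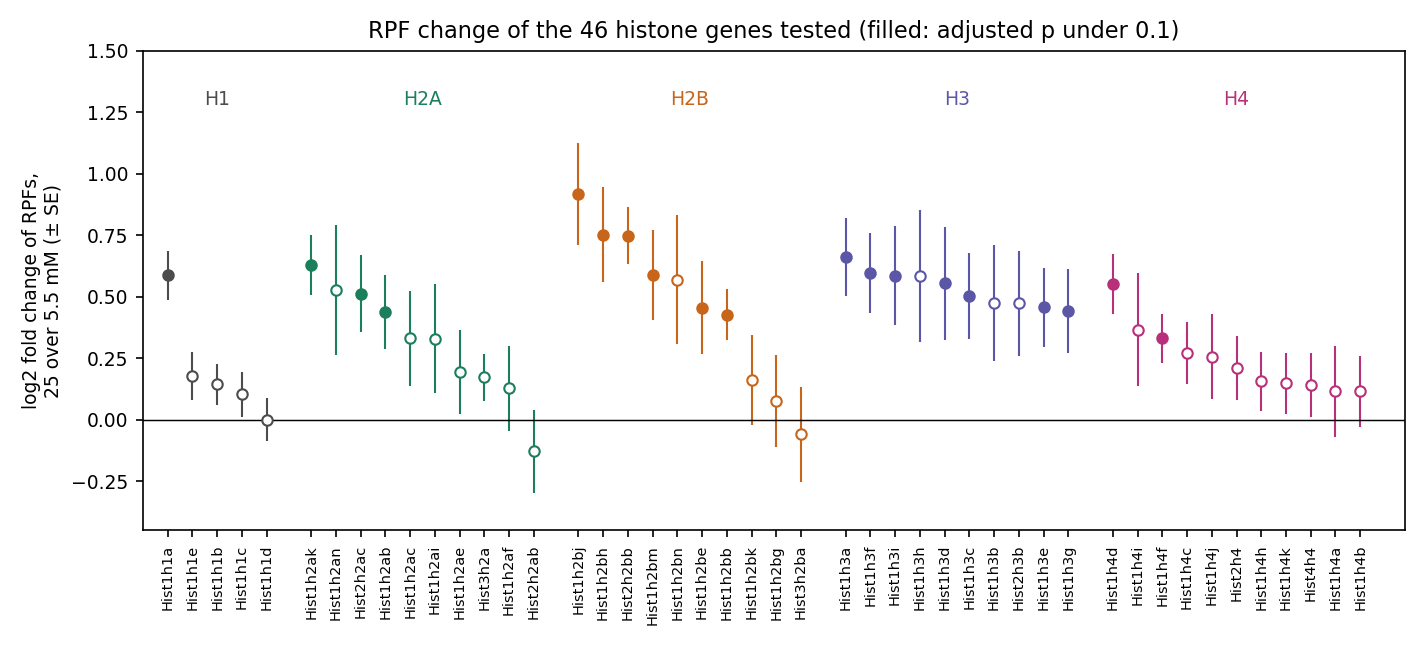
Log2 fold change of RPFs at 25 over 5.5 mM glucose (vertical axis, with SE) for the 46 histone genes that passed the filter, grouped by class and sorted within it. Filled points are the 19 genes with an adjusted p under 0.1, all above 0, from Hist1h4f (0.33) to Hist1h2bj (0.92), and 3 open points lie at or below 0.

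Among the linker histones only Hist1h1a, the gene of H1.1, was called. RPFs of Hist1h1a were at 174, 236 and 332 CPM (lowest, median and highest of 8) at 5.5 mM and at 223, 360.4 and 437 CPM at 25 mM (0.59, SE 0.10, adjusted p = 1.3e-04 with edgeR). 6 of the 8 libraries at 25 mM lay above all 8 at 5.5 mM, and replicate 8 lay inside the 5.5 mM range with 223 CPM. The other 4 linker genes tested were not called. Hist1h1b had 320.1, 426 and 617 CPM of RPFs (lowest, median, highest) at 5.5 mM and 406, 499 and 595 CPM at 25 mM, and the groups overlapped (0.14, SE 0.08, adjusted p = 0.22 with edgeR). The same was true of Hist1h1e (0.18, SE 0.10, adjusted p = 0.2 with edgeR), Hist1h1c (0.10, SE 0.09, adjusted p = 0.46 with edgeR) and Hist1h1d (-0.00, SE 0.09, adjusted p = 1 with edgeR). Hist1h1b, Hist1h1c, Hist1h1d and Hist1h1e encode the somatic variants H1.5, H1.2, H1.3 and H1.4. Summed RPFs of the H1 class had a median of 1999 CPM at 5.5 mM (1744 to 2869) and of 2460.1 CPM at 25 mM (1825 to 2835).

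Of the H2A genes, Hist1h2ak, Hist2h2ac and Hist1h2ab were higher. For Hist1h2ak the lowest, median and highest RPF levels were 61.9, 75.4 and 95.8 CPM at 5.5 mM and 80.4, 113 and 159 CPM at 25 mM (0.63, SE 0.12, adjusted p = 5.2e-04 with edgeR). Replicates 1 to 7 at 25 mM, at 96.9 CPM or more, were above every 5.5 mM library, and replicate 8 was at 80.4 CPM. This held for 2 of the 46 members, Hist1h2ak and Hist2h2bb, and for 3.47% of all genes tested, while complete separation of the 2 groups of 8 held for no member and for 0.574% of all genes. RPFs of Hist2h2ac were at 29.8, 41.0 and 55.5 CPM (lowest, median and highest of 8) at 5.5 mM and at 36.7, 61.4 and 88.4 CPM at 25 mM (0.51, SE 0.16, adjusted p = 0.019 with edgeR), with 5 of 8 libraries above all those at 5.5 mM. Hist1h2ab had 65.4, 100.1 and 146 CPM of RPFs (lowest, median, highest) at 5.5 mM and 87.0, 133 and 199 CPM at 25 mM (0.44, SE 0.15, adjusted p = 0.035 with edgeR), and 2 of 8 libraries were above the 5.5 mM range. Hist3h2a and Hist1h2ac were not called (0.17, SE 0.10, adjusted p = 0.21 with edgeR; 0.33, SE 0.19, adjusted p = 0.22 with edgeR). The lowest value of the class was that of Hist2h2ab, which was not called (-0.13, SE 0.17, adjusted p = 0.63 with edgeR).

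The H2B genes, partners of H2A in the nucleosome, held the highest fold changes. For Hist2h2bb the lowest, median and highest RPF levels were 221, 292 and 419.7 CPM at 5.5 mM and 264, 473 and 711 CPM at 25 mM (0.75, SE 0.11, adjusted p = 4.7e-05 with edgeR), with replicates 1 to 7 at 426 CPM or more and replicate 8 at 264 CPM. It was the only H2B gene past the threshold in each batch alone (0.84, adjusted p = 0.0014, and 0.66, adjusted p = 0.044, with edgeR). RPFs of Hist1h2bj were at 13.0, 33.3 and 41.6 CPM (lowest, median and highest of 8) at 5.5 mM and at 12.7, 61.3 and 92.6 CPM at 25 mM (0.92, SE 0.21, adjusted p = 0.002 with edgeR). 6 of the 8 libraries at 25 mM were above the 5.5 mM range, and replicate 8 lay below it with 12.7 CPM. Its log2 fold change was 1.17 in the first batch and 0.30 in the second. Hist1h2bb had 111, 151 and 192 CPM of RPFs (lowest, median, highest) at 5.5 mM and 142, 203 and 249 CPM at 25 mM (0.43, SE 0.10, adjusted p = 0.0039 with edgeR), with 5 of 8 libraries above the 5.5 mM range. For Hist1h2bm the lowest, median and highest RPF levels were 18.2, 43.0 and 60.1 CPM at 5.5 mM and 24.0, 62.9 and 87.3 CPM at 25 mM (0.59, SE 0.18, adjusted p = 0.02 with edgeR), likewise with 5 of 8 above it. The remaining calls were Hist1h2be (0.45) and Hist1h2bh (0.75). Of the 6 tested H2B genes with an octamer in the window 4 were higher, and of the 4 without one 2 were higher, with median log2 fold changes of 0.44 and 0.66. Of the 5 with TATAAA 1 was higher, and of the 5 without it 5 were. Other classes did not share this split. The called H1, H2A and H4 genes, Hist1h1a, Hist1h2ab, Hist1h2ak, Hist2h2ac, Hist1h4d and Hist1h4f, all had TATAAA in the window. Called H3 genes had it (Hist1h3d, Hist1h3i) or lacked it (Hist1h3c, Hist1h3e, Hist1h3g). A link between either motif and the RPF change was not tested.

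All 10 H3 genes tested had values above 0, and 7 were called. RPFs of Hist1h3a were at 33.8, 65.7 and 79.3 CPM (lowest, median and highest of 8) at 5.5 mM and at 62.1, 94.8 and 149 CPM at 25 mM (0.66, SE 0.16, adjusted p = 0.0037 with edgeR), and 6 of 8 libraries lay above all those at 5.5 mM. Hist1h3f had 73.9, 98.3 and 132 CPM of RPFs (lowest, median, highest) at 5.5 mM and 84.8, 152 and 234 CPM at 25 mM (0.60, SE 0.16, adjusted p = 0.0086 with edgeR), and 4 of 8 did. For Hist1h3e the lowest, median and highest RPF levels were 85.1, 96.0 and 136 CPM at 5.5 mM and 77.6, 132 and 211 CPM at 25 mM (0.46, SE 0.16, adjusted p = 0.039 with edgeR), where the groups overlapped in 5 of 8. RPFs of Hist1h3c were at 39.5, 56.5 and 86.7 CPM (lowest, median and highest of 8) at 5.5 mM and at 48.8, 79.6 and 128 CPM at 25 mM (0.50, SE 0.17, adjusted p = 0.036 with edgeR), again with 3 of 8 above the 5.5 mM range. The other calls were Hist1h3i (0.59), Hist1h3d (0.55) and Hist1h3g (0.44). Without the RPF library labelled 25 mM replicate 8, picked out by its low summed histone RPFs, all 10 were called, Hist1h3b, Hist1h3h and Hist2h3b in addition. The first batch alone gave 3 of 10, and leaving out the 5 cultures of shallow RNA gave 1 of 10, with all 10 values above 0 in both. No H3 gene was past the threshold in the second batch alone, where 7 were tested and all 7 had values above 0. Hist2h3c1 had 0 of 27504512 RPF counts, which allows up to 0.109 CPM over all libraries by counting error alone, and 1817 RNA counts. Its near-identical neighbour Hist2h3c2 had 6 RPF and 184 RNA counts. How reads matching both genes were counted is not known here. The bound therefore holds for the reads assigned to Hist2h3c1 and does not limit its true RPF level.

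All H4 genes encode almost the same protein, and their mRNAs are alike in the coding part. Hist1h4d and Hist1h4f were the 2 called. Hist1h4d had 312, 347 and 499.9 CPM of RPFs (lowest, median, highest) at 5.5 mM and 364, 585 and 737 CPM at 25 mM (0.55, SE 0.12, adjusted p = 0.0018 with edgeR), with 6 of 8 libraries above the 5.5 mM range and values of 0.53 and 0.60 in the first and second batch. For Hist1h4f the lowest, median and highest RPF levels were 146, 186 and 247 CPM at 5.5 mM and 202, 246 and 320.0 CPM at 25 mM (0.33, SE 0.10, adjusted p = 0.018 with edgeR), with 4 of 8 above it. Hist1h4c (0.27, SE 0.13, adjusted p = 0.13 with edgeR) and Hist2h4 (0.21, SE 0.13, adjusted p = 0.26 with edgeR) were not called. The 11 values of the class ran from 0.11 for Hist1h4b to 0.55 for Hist1h4d, with a median of 0.21, against 0.53 for H3, 0.51 for H2B, 0.33 for H2A and 0.14 for H1. Differences between the classes were not tested.

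**Figure D2:**
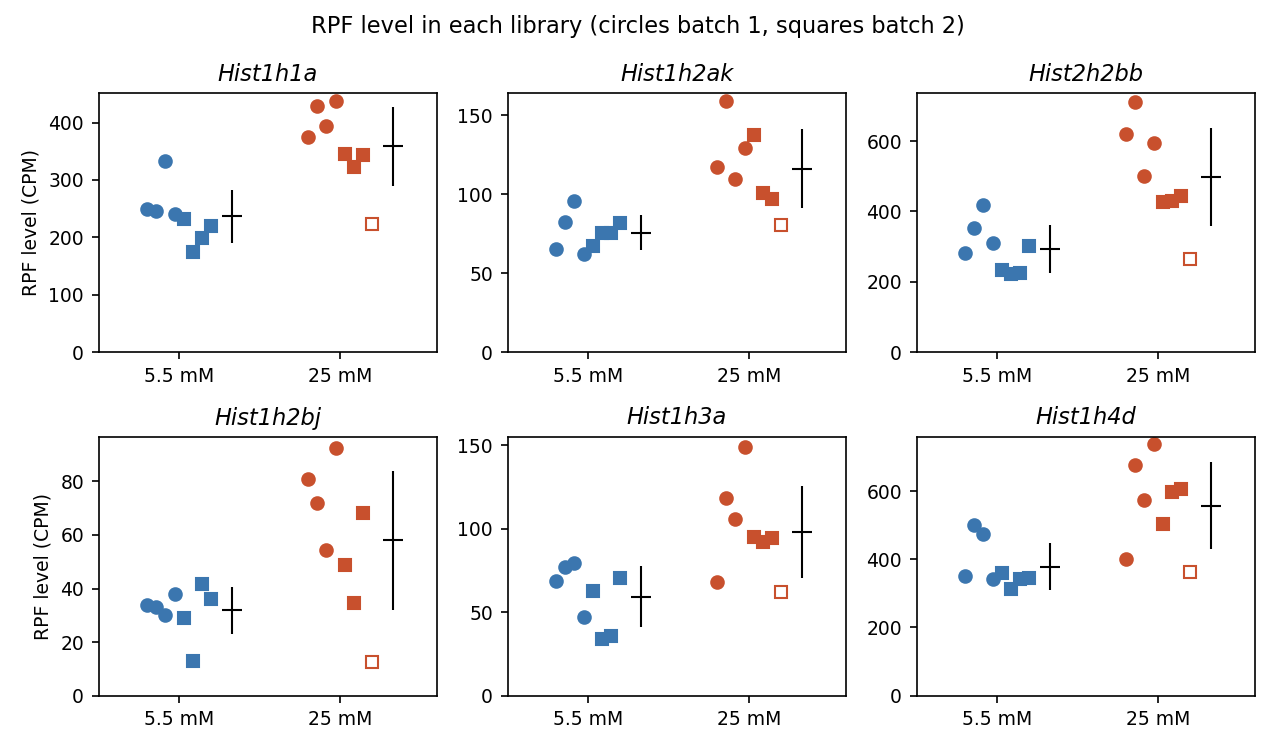
RPF level in CPM (vertical axis, from 0) in each of 8 libraries at 5.5 mM (blue) and 25 mM (red) for 6 histone genes, circles for the first batch and squares for the second, with the mean ± SD beside each group. The open square is the library labelled 25 mM replicate 8, which is the lowest 25 mM point in all 6 panels, for Hist2h2bb at 264 CPM against 426 CPM or more in the other 7.

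Poly(A)-selected RNA was lower at 25 mM for a part of the histone genes, and 1 of these calls was also made without the 5 shallow libraries. 10 of the 29 genes tested were lower at 25 mM (adjusted p under 0.01) and 0 higher, where 24.2% of all 12365 genes were called lower and 16.4% higher. The 10 were Hist1h1b, Hist1h1d and Hist1h1e of H1, Hist1h2ac, Hist1h2bj, Hist1h3d, and Hist2h4, Hist4h4, Hist1h4b and Hist1h4d of H4. None was higher at an unadjusted p under 0.05 in edgeR. DESeq2 called 14 lower and 0 higher, without a share of all genes given here. The median log2 fold change of the 29 was -0.71 with TMM scaling, against 0.12 over all genes, and turned to 0.13 with scaling by library size, against 0.82 over all genes, where 5 genes were lower (10.9% of all genes lower). The first batch alone gave 0 of 28 calls and 0 among all 12470 genes tested by edgeR, with 8 of the 28 lower at an unadjusted p under 0.05. The second batch alone, in which 3 of the 4 libraries at 5.5 mM were shallow, gave 19 of 41 lower (20.0% of all genes).

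Hist2h4 showed this most clearly. It had 25.3 to 122 CPM of RNA in the 5 shallow libraries, from 0.993 up to 10.1 in the remaining 3 and 0.401 to 0.957 CPM (median 0.715) at 25 mM (-5.79, SE 0.80, adjusted p = 6.8e-05 with edgeR). All 8 libraries at 5.5 mM were above all 8 at 25 mM, and the 5 were above the other 3. Without the 5 libraries it was still lower at 25 mM (-2.60, SE 0.47, adjusted p = 0.0016 with edgeR), while its RPFs did not pass the threshold. RNA of Hist1h1b was at 5.16 to 21.5 CPM in the 5, 0.447 to 2.10 in the other 3 and 0.287 to 0.896 at 25 mM (-3.996, SE 0.67, adjusted p = 1.6e-04 with edgeR). Each of the 5 lay above every 25 mM library, and 1 of the other 3 did. Hist1h1e gave the same picture, with 11.1 to 59.5, 1.53 to 6.05 and 1.29 to 3.58 CPM (-2.72, SE 0.56, adjusted p = 7.6e-04 with edgeR). Further calls with values in the same order were Hist1h2bj (-2.68, SE 0.53, adjusted p = 5.7e-04 with edgeR), Hist1h4d (-1.82, SE 0.36, adjusted p = 5.2e-04 with edgeR) and Hist4h4 (-2.73, SE 0.56, adjusted p = 7.3e-04 with edgeR). The remaining 4 calls, Hist1h3d, Hist1h4b, Hist1h1d and Hist1h2ac, had values from -1.68 to -0.99. Together the 67 genes had 728 to 1009 RNA counts in each of the 5 shallow libraries. Few reads underlie the 25 mM levels of these genes too. Hist2h4 had 40 to 328 RNA counts in the 5 and 12 to 38 at 25 mM, and Hist1h1b 19 to 51 and 9 to 40.

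Without the 5 shallow libraries 3 of 34 genes were lower, Hist2h4, Hist3h2a and Hist3h2ba, where 19.2% of all genes were lower and 10.4% higher. Only Hist2h4 was among the 10 as well, and the median of the 34 was -0.35. RNA of Hist3h2a had a lowest, median and highest level of 17.1, 31.9 and 51.0 CPM at 5.5 mM and of 13.1, 19.0 and 27.2 CPM at 25 mM, and it was lower without the 5 libraries (-0.60, SE 0.13, adjusted p = 0.0032 with edgeR). Hist3h2ba had 3.71 to 14.7 CPM in the 5, 19.4 to 40.1 in the other 3 and 9.47 to 17.5 at 25 mM (-1.15, SE 0.22, adjusted p = 0.0018 with edgeR without the 5). Its level in the 5 was therefore below that in the other 3, opposite to Hist2h4 and Hist1h1b. Hist1h1c, Hist1h2bc, Hist2h2be and Hist1h4i followed this second pattern. RNA of Hist1h1c was at 5.93 to 58.2 CPM in the 5, 72.9 to 93.1 in the other 3 and 52.4 to 74.1 at 25 mM, and was not called with all libraries (0.38, SE 0.44, adjusted p = 0.46 with edgeR) or without the 5 (-0.37, SE 0.14, adjusted p = 0.039 with edgeR). For Hist1h2bc the 3 ranges were 6.03 to 22.6, 22.7 to 31.2 and 22.2 to 38.6 CPM.

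**Figure D3:**
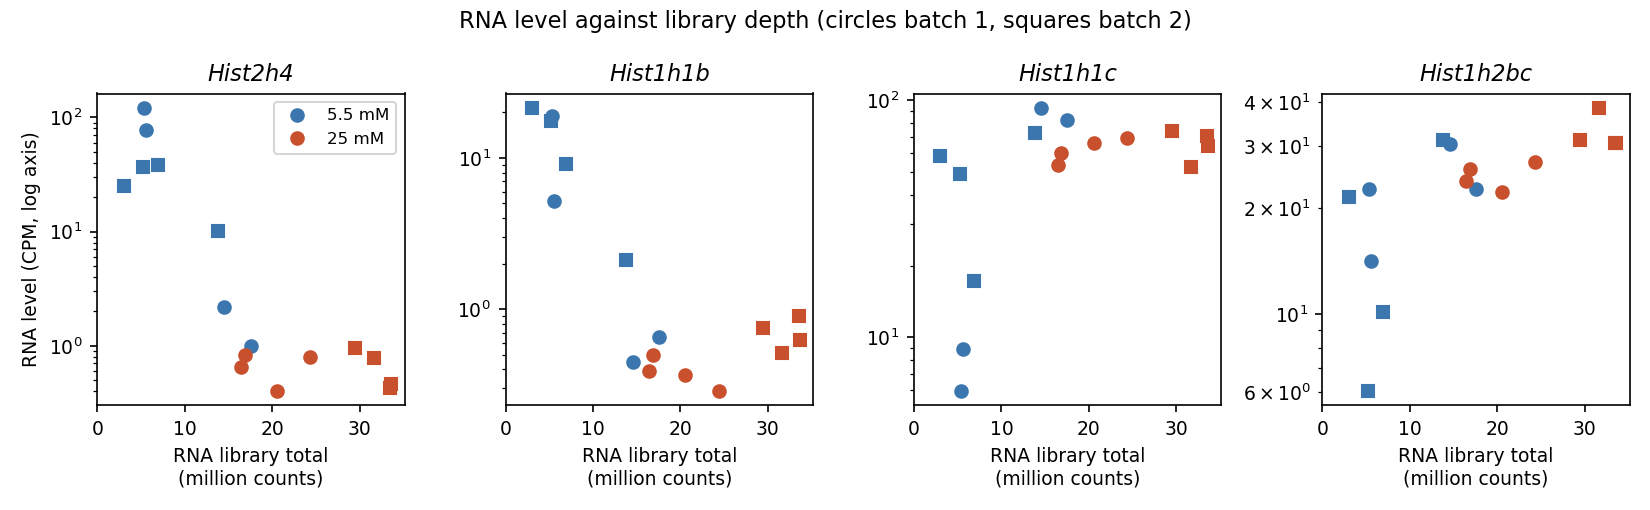
RNA level in CPM (vertical axis, log scale) against the total counts of the library (horizontal axis) for Hist2h4, Hist1h1b, Hist1h1c and Hist1h2bc, in 5.5 mM (blue) and 25 mM (red) libraries. The 5 shallow libraries, at the left, hold the highest values of Hist2h4 (25.3 to 122 CPM) and of Hist1h1b, while their Hist1h1c and Hist1h2bc values lie below those of the other 3 libraries at 5.5 mM.

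Hist1h1c, Hist1h2bc, Hist2h2be, Hist3h2a, Hist3h2ba and Hist1h4i, grouped after their values were seen, made up most of the histone poly(A) RNA. Together they had 128 to 174 CPM at 25 mM, against 30.2 to 54.6 for the other 61 genes together. In the other 3 libraries at 5.5 mM they had 169.5 to 223 CPM, and the 61 had 29.4 to 95.4. This was reversed in the 5 shallow libraries, with 70.9 to 109 CPM for the 6 and 153 to 381 for the 61. In RPFs the 61 genes had 3748 to 5665 CPM in the cultures of these 5 libraries and 4166 to 5990.1 in the other 3 at 5.5 mM. The 6 had 656 to 789 and 692 to 907 CPM, so both pairs of ranges overlapped. What set the 5 libraries apart was not tested. In the second batch, where replicate 5 is the only other RNA library at 5.5 mM, it can hardly be told apart from glucose.

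Relative to their poly(A) RNA, most histone genes carried far more footprints than other genes. In the 25 mM cultures, which have no shallow RNA library, RPF over RNA CPM on a log2 scale (pseudocount 0.5 CPM) had a median of 5.83 over the 25 genes that passed both filters, against 0.31 over all 8637 genes, whose 5th and 95th percentiles were -1.41 and 1.69. 23 of the 25 lay above the 95th percentile and 0 below the 5th. The highest were Hist1h1b at 8.91 ± 0.46 (SD, n = 8), Hist2h4 at 8.45 ± 0.31 (SD, n = 8), Hist1h1a at 8.43 ± 0.51 (SD, n = 8) and Hist1h4d at 8.38 ± 0.39 (SD, n = 8). Within the percentiles lay Hist1h4i at -0.07 ± 0.76 (SD, n = 8) and Hist3h2ba at 0.45 ± 0.38 (SD, n = 8). Hist1h2bc and Hist2h2be, which did not pass the RPF filter, were at -2.35 ± 0.92 (SD, n = 8) and -2.23 ± 1.48 (SD, n = 8), with 157 and 51 RPF counts against 10228 and 3178 RNA counts over all libraries. The study's methods name exons or truncated coding sequences as the parts counted, without saying which was used for which library type. Whether RPFs and RNA were counted over the same part of each gene is therefore not known here, and a difference in this would enter every ratio. An mRNA without a poly(A) tail can give RPFs and still be missed by poly(A) selection, and the part of this in the ratios was not tested.

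**Figure D4:**
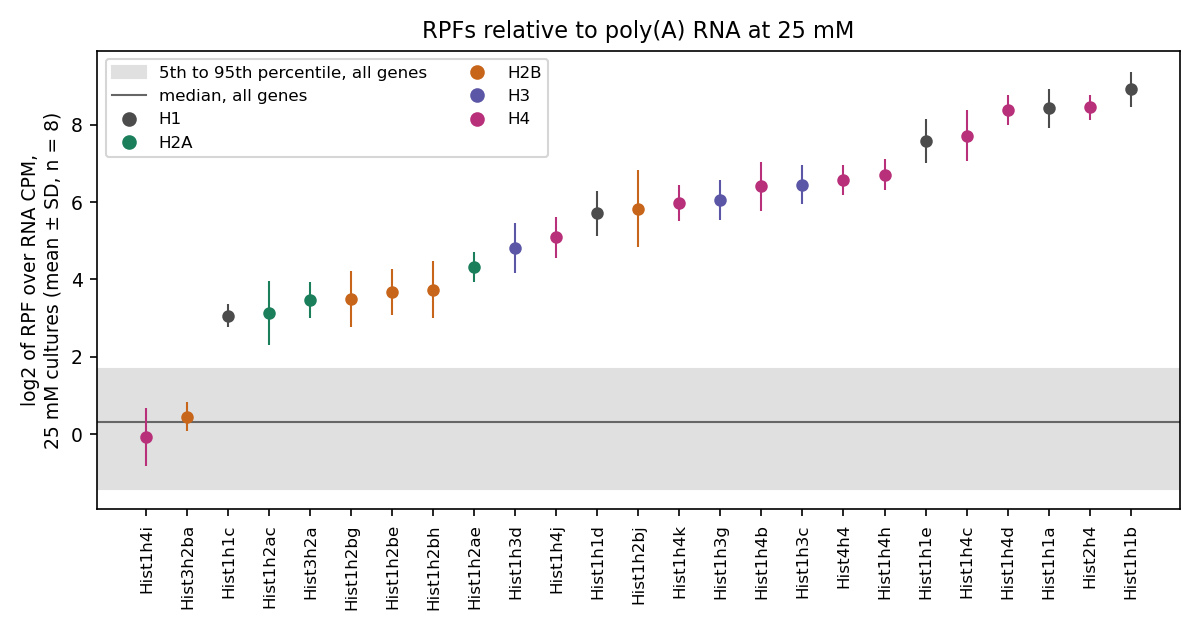
RPF over RNA CPM as a log2 ratio in the 25 mM cultures (vertical axis, mean ± SD over 8 cultures) for the 25 histone genes that passed both filters, sorted and coloured by class. The grey band spans the 5th to 95th percentile of all 8637 genes (-1.41 to 1.69), and 23 of the 25 points lie above it.

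The change in translation efficiency (TE), tested as the glucose effect on RPFs minus that on RNA in 1 joint model, was positive for most histone genes. 15 of the 25 genes were higher (adjusted p under 0.1) and 0 lower, where 31.2% of all 8637 genes were higher and 28.6% lower. The median was 1.40, against -0.10 over all genes. With library size scaling it was 0.49 against -0.91, with 8 higher, a setting for which the share of all genes is not given here. Of the 25, 0 were lower at an unadjusted p under 0.05 in edgeR or with DESeq2. Of the 15, 10 were also lower in RNA and 6 higher in RPFs, layers that share their libraries with this test. Hist2h4 had the highest value (6.11, SE 0.77, adjusted p = 6.0e-06 with edgeR). Per culture, log2 RPF over RNA was 1.43, 3.52 and 7.96 (lowest, median, highest) at 5.5 mM and 7.95, 8.42 and 8.88 at 25 mM, and the groups met only at their edges. Hist1h1b followed (4.24, SE 0.65, adjusted p = 1.2e-05 with edgeR), then Hist1h2bj (3.59, SE 0.59, adjusted p = 2.1e-05 with edgeR) and Hist1h1e (3.02, SE 0.57, adjusted p = 9.3e-05 with edgeR). Without the 5 RNA libraries and the RPF library labelled 25 mM replicate 8, 18 of 30 were higher, 13 of the 15 among them (27.4% of all genes higher and 26.3% lower). The values then were smaller, 2.96 for Hist2h4 and 1.29 for Hist1h1b. That RPF library was picked out by its low summed histone RPFs, which enter TE, so the calls without it are not independent support. The first batch gave 7 of 25 higher (8.05% of all genes) and the second 23 of 30 (27.3% of all genes).

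**Figure D5:**
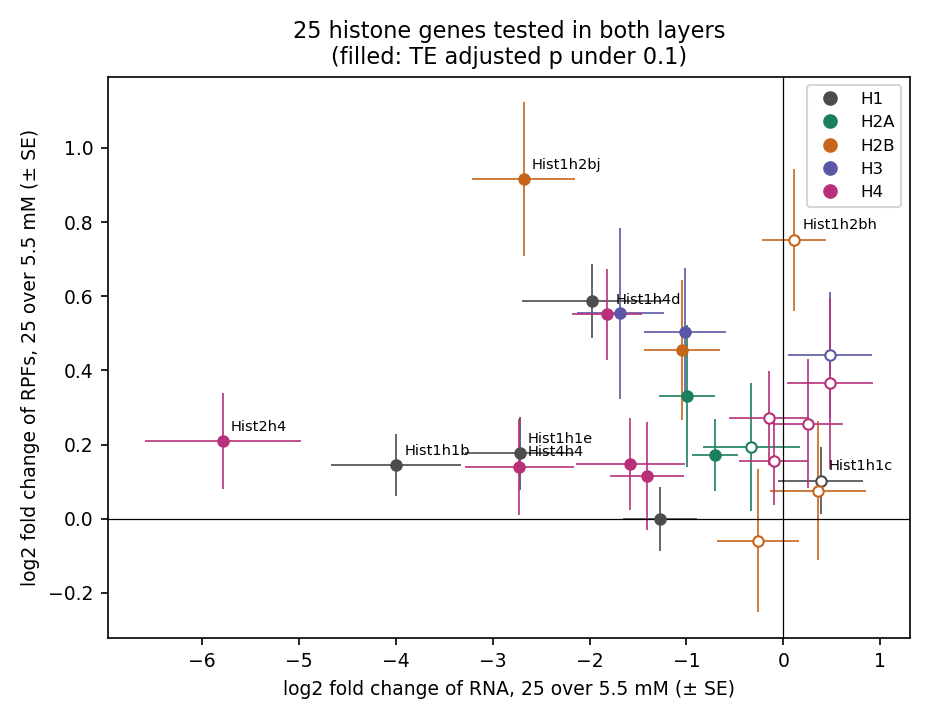
Log2 fold change of RPFs (vertical axis) against that of poly(A) RNA (horizontal axis), 25 over 5.5 mM with TMM scaling and SE, for the 25 histone genes tested in both layers, coloured by class. Filled points are the 15 genes with higher TE at adjusted p under 0.1, and all 15 lie left of 0 in RNA with this scaling, as far as -5.79 for Hist2h4 (the median RNA value of all 29 tested genes turned from -0.71 to 0.13 with scaling by library size), while their RPF values lie between -0.00 and 0.92.

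Many H2A and H2B genes stand head to head. 9 H2A-H2B pairs had annotated starts on opposite strands within 400 bases of each other, and both genes could be tested in RPFs in 2 of them. Hist1h2ak (0.63) and its partner Hist1h2bn, 164 bases away, had like values, of which that of Hist1h2bn was not called (0.57, SE 0.26, adjusted p = 0.12 with edgeR). Hist1h2ae (0.19) and Hist1h2bg (0.08) were both not called.

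Genes around the histones were taken from 4 lists, and their counts stand against 15.5% higher and 15.4% lower over all genes in RPFs and 16.4% and 24.2% in RNA. Replacement histones are made outside S phase too and have polyadenylated mRNAs. Of the 11, 9 were tested in RPFs, 0 were lower (0 at an unadjusted p under 0.05 in edgeR and 0 with DESeq2) and 1 was higher, Cenpa, the H3 variant of centromeres. RPFs of Cenpa were at 18.2, 27.0 and 41.1 CPM (lowest, median and highest of 8) at 5.5 mM and at 28.8, 48.6 and 57.6 CPM at 25 mM (0.67, SE 0.15, adjusted p = 0.0013 with edgeR). The other 8 had values from -0.24 (H2afv) to 0.27 (H1f0). Almost no RPFs were assigned to H2afz and H3f3a, at most 2.62 and 5.76 CPM in any library. How reads matching several genes were counted is not known here, so these values need not be their true RPF levels. In RNA 3 of 11 (27.3%, near the share of all genes) were lower at 25 mM, H2afj (-3.01, SE 0.39, adjusted p = 6.4e-05 with edgeR), H2afy (-3.65, SE 0.63, adjusted p = 1.9e-04 with edgeR) and H1fx (-1.02, SE 0.28, adjusted p = 0.0059 with edgeR), and 0 higher (5 at an unadjusted p under 0.05 in edgeR, and 2 with DESeq2). Values of the others in RNA were 1.67 for H2afz, 0.78 for H1f0, 0.77 for H3f3b, 0.68 for H3f3a, 0.55 for H2afx, 0.11 for H2afy2, -0.18 for H2afv and 1.13 for Cenpa.

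The second list holds factors that transcribe, process or degrade histone mRNA. Of 25 tested in RPFs 0 were higher by edgeR (1 at an unadjusted p under 0.05, and 0 with DESeq2) and 5 lower (20.0%, against 15.4% of all genes), among them Cpsf3, the nuclease that cuts the 3′ end (-0.35, SE 0.08, adjusted p = 0.0033 with edgeR), the uridylyltransferases Tut7 (-0.56, SE 0.13, adjusted p = 0.0035 with edgeR) and Tut4 (-0.36, SE 0.11, adjusted p = 0.022 with edgeR), which tail histone mRNA for decay, and Npat, the coactivator of histone genes (-0.31, SE 0.12, adjusted p = 0.057 with edgeR). Slbp, the stem-loop binding protein, was not called and is named outside the rule (-0.07, SE 0.13, adjusted p = 0.74 with edgeR). In RNA 4 of 31 were higher (12.9%) and 9 lower (29.0%), against 16.4% and 24.2% of all genes, and those with the smallest p were Lsm11 (-2.94), Srrt (-3.64), Pou2f1 (-2.25), which encodes Oct-1, and Cstf2 (2.36). Histone chaperones and importers gave 5 higher (17.9%) and 6 lower (21.4%) of 28 in RPFs, near the 15.5% and 15.4% of all genes, and those with the smallest p were Hjurp, the chaperone of CENPA (0.34, SE 0.08, adjusted p = 0.0024 with edgeR), the importin Ipo4 (0.35), Atrx (-0.41) and the FACT subunit Supt16 (-0.32). In RNA 2 of 30 were higher (6.67%) and 15 lower (50%), against 16.4% and 24.2% of all genes, with Anp32b (-5.32), Atrx (-4.74), Ubn1 (-3.86) and Npm3 (-3.35) first by p.

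DNA replication and S phase genes moved in both directions. In RPFs 11 of 48 were higher (22.9%) and 14 lower (29.2%), against 15.5% and 15.4% of all genes, and the median log2 fold change was 0.04. Rrm2, a subunit of ribonucleotide reductase, rose (0.57, SE 0.10, adjusted p = 1.4e-04 with edgeR), as did E2f2, a transcription factor of the G1/S transition (0.84, SE 0.17, adjusted p = 7.4e-04 with edgeR). Pole, the catalytic subunit of DNA polymerase epsilon, fell (-0.50, SE 0.10, adjusted p = 4.8e-04 with edgeR), as did Mcm3 of the replicative helicase (-0.38, SE 0.09, adjusted p = 0.0018 with edgeR). Summed RPFs of the list were 5159 to 6088 at low and 4686 to 5692 CPM at high glucose, while those of the 67 histone genes were 4469 to 6897 and 4912 to 8730.2 CPM. In RNA 11 of 49 were higher (22.4%) and 8 lower (16.3%), against 16.4% and 24.2% of all genes, with Lig1 (-3.68), Cdc6 (1.07), Rfc1 (-3.36) and Pcna (2.11) first by p. Without the 5 shallow RNA libraries 10.4% of all genes were higher in RNA and 19.2% lower. The RNA calls were then 8 higher (16.3%) and 4 lower (8.16%) of 49 for this list and 1 (3.23%) and 7 (22.6%) of 31 for the mRNA factors. They were 4 (13.3%) and 5 (16.7%) of 30 for the chaperones, and 4 of 11 lower (36.4%) for the replacement histones. Without the RPF library labelled 25 mM replicate 8, 2 of 9 replacement histones were higher in RPFs (22.2%, against 17.6% of all genes). The share of cells in S phase was not measured in these libraries, and more S phase cells cannot be told apart from more histone RPFs per cell.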

How the data were processed

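Ribosome footprints and poly(A)-selected RNA of MIN6 cells were sequenced as single-end 75 bp reads. The authors deposited raw counts per gene for each library, and their annotation was Ensembl release 102. Per the study's methods PCR duplicates were removed, and how reads matching several genes were counted is not given in the sources used here. The members and gene lists were chosen with earlier results of these data known.

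Counts were analysed in R 4.3.3 with edgeR 4.0.16 (filterByExpr, TMM, quasi-likelihood test) in models that hold batch, for RNA and RPFs separately. TE was the glucose effect on RPFs minus that on RNA, fitted to 32 libraries together. Thresholds on Benjamini-Hochberg adjusted p-values, over all genes tested, were 0.1 for RPFs and TE and 0.01 for RNA. SEs were derived from the fold change and the F statistic. The fit was tested on simulated counts. Genes were named by a rule: per class the 4 with the highest mean RPF level and the 2 with the smallest p in RPFs and in RNA, and per list the called genes with the 4 smallest p per layer, with all replacement histones.

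Alternatives were DESeq2 1.42.0, its size factors, scaling by library size alone, keeping genes of low counts, dropping the batch term, either batch by itself, the replicate block, each replicate left out, and for TE limma 3.58.1 per culture with pseudocounts of 0.5 and 0.1 CPM. Leaving out libraries that stood apart was added after seeing the data. Symbols were matched for 21826 of 21945 IDs. Positions, promoters and motifs came from RefSeq on GRCm38.p6, and figures were drawn with matplotlib 3.10.9. 1 marker of the lists is not reported here.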

Additional observations from a re-analysis of the deposited data

Results flagged for a closer look

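In 3 of 76 groups of 8 libraries of a named gene 1 library lay far from the others, and chance alone flags about 1 in 20 such groups. RPFs of Hist1h1c were at 660.4 CPM in 5.5 mM replicate 3, where the nearest library had 528 CPM and the lowest 409 CPM. RNA of Hist1h2ac was at 6.96 CPM in 5.5 mM replicate 8, with the nearest at 3.81 CPM and the lowest at 0.993 CPM. RPFs of Hist1h2bj were at 13.0 CPM in 5.5 mM replicate 6, with the nearest at 28.9 CPM and the highest at 41.6 CPM.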

How the results depend on the processing

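No alternative called a histone gene lower in RPFs, higher in RNA or lower in TE. The count of genes with higher RPFs (19) was 3 in the second batch alone 9 without the 5 cultures of shallow RNA and 26 without the library labelled 25 mM replicate 8, and ranged from 12 (without replicate 4) to 24 with each replicate left out. The count with lower RNA (10) was 0 in the first batch, 19 in the second, 5 with library size scaling, 3 without the 5 shallow libraries and from 6 (without replicate 2, 7 or 8) to 10 with each replicate left out. The count with higher TE (15) was 7 in the first batch, 23 in the second, 8 with library size scaling, 31 without a filter, where 61 genes were tested, and from 15 to 17 with each replicate left out. Shares of all genes are not given for the settings with a replicate left out, without a filter or with a block. They are also not given for DESeq2 or for TE with library size scaling, so these counts cannot be set against all genes. The causes were not tested.

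The replicate number as a block gave 24 genes with higher RPFs, 5 with lower RNA and, with the culture as block, 15 with higher TE. The numbers were not taken to pair the samples, since not every pair correlated above 0.1: same-numbered deviations correlated at 0.0085 to 0.47 in RPFs, all 4 first-batch pairs above 0.1 and the second-batch pairs below it, and at -0.17 to 0.16 in RNA, and 6 of 8 RPF replicates but only replicate 7 in RNA matched their own number best.

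Among single genes, RPF values that changed sign were Hist1h1d (0.0062 with DESeq2 size factors, 0.00023 without a filter, 0.071 in the second batch, 0.030 without the library labelled 25 mM replicate 8, and from -0.040 to 0.051 with each replicate left out), Hist3h2a (-0.029) and Hist1h4c (-0.0028) in the second batch, and Hist1h1c (-0.0064) and Hist1h1e (-0.015) without the 5 cultures. RNA values that did were Hist1h2be (0.027), Hist1h3c (0.20) and Hist1h4c (0.090) in the first batch, Hist3h2a (0.13) and Hist1h4c (0.53) with library size scaling, Hist1h4c with each replicate left out (-0.40 to 0.052), and Hist1h1c (-0.37) without the 5 libraries. In TE they were Hist1h4c (-0.29 with library size scaling, -0.093 with limma and a pseudocount of 0.1 CPM) and Hist1h1c (0.59 without the 6 libraries). Depth limits the RNA values of the shallow libraries, in each of which the histone genes held 728 to 1009 counts. RNA counts of genes such as Hist2h4 and Hist1h1b were low at 25 mM too.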
